A study of Homo sapiens and Mus musculus with 19 samples.

Results

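The 33 germline and meiosis genes described here were followed in chromatin-associated RNA (caRNA, the RNA that stays with chromatin after the cytoplasm and the soluble nuclear contents are washed away) of mouse embryonic stem (mES) cells. They are 33 of the 54446 genes counted in each mouse library. They were listed because Smc1b and Hormad1, both genes of the meiotic chromosome axis, had the largest increases after Nsun2 knockdown among moderately expressed genes, and every germline gene of the list was to be read against a background set by olfactory receptor genes, which mES cells are not known to use. The values of the knockdown therefore chose the list, and the differences between knockdown and control are given below as a description. The calls that the members received in the fit across all genes are counted once, beside the share over all genes, and support nothing.

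The study compared mES cells transfected with a control siRNA (siControl, 3 libraries) or an siRNA against Nsun2, which encodes an RNA 5-methylcytosine methyltransferase (siNsun2, 3 libraries). All mES cells were cultured in serum with leukaemia inhibitory factor and the inhibitors CHIR99021 and PD0325901, and had been moved to gelatin to clear feeder cells. A single further mES cell library, from a Pspc1 wild-type (WT) line of another experiment, served as a second look at the baseline. K562, an established human myeloid leukaemia line, was TET2 WT or TET2 knockout (KO). Its cells expressed either a control hairpin (shControl) or a hairpin that targets MBD6 (shMBD6), with 3 libraries in each of the 4 groups, under puromycin in all of them. TET2 oxidises 5-methylcytosine and MBD6 is a methyl-CpG-binding-domain protein. The labels do not say whether replicates came from separate cultures or clones, so p-values measure only the spread between these libraries.

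Meiosis pairs and recombines the parental chromosomes. Sister chromatids are held by a meiotic form of cohesin, chromosome axes form on it, the synaptonemal complex zips the paired axes together, and programmed DNA breaks are repaired between them as crossovers. In germ cells, piRNA-guided proteins also keep transposons silent. ES cells are not meiotic, and in them many of these genes are known to be kept low by DNA methylation and by the Polycomb complex PRC1.6, which is brought to promoters by DNA-binding partners such as E2F6 and MGA with MAX.

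Gene counts ran from 58078323 to 66832780 in the 6 siRNA libraries, with 91990658 in the Pspc1 WT library and 52158403 to 102070223 in K562. Nsun2 itself, the targeted gene, had 129 ± 3.45 counts per 1e+06 gene counts (CPM, mean ± SD of 3 libraries) with the control siRNA and 103 ± 3.55 with the Nsun2 siRNA, and the groups did not overlap. Its log2 change was -0.34 (SE 0.03, edgeR quasi-likelihood test, Benjamini-Hochberg adjusted p = 2.78e-16). Reads outside any gene took 19.6% to 20.2% of read records in siControl and 28.9% to 29.9% in siNsun2. Marker lists were read as well, beside shares over all genes of 25.8% called higher and 24.3% lower (37.1% and 9.4% with total gene counts as the scale). Of 9 tested pluripotency markers 8 were called lower and 0 higher with siNsun2, led by Klf4 (-0.81), Tbx3 (-0.75) and Tfcp2l1 (-0.66). Their summed level was 1922 to 1954 CPM in siControl and 1453 to 1484 in siNsun2. The smallest decreases among those called were in Nanog (-0.12), Esrrb (-0.17) and Dppa5a (-0.22). These values depend on the scale, as the median gene stood at 0.14 here and at 0.32 with total gene counts. How many of the 8 calls hold with total gene counts was not tested. Sox2 was listed at 0 in every library, as are nearly all genes that lie inside a gene on their own strand, so its 0 says nothing of its RNA. Feeder fibroblast markers summed to 49.9 to 52.7 and 38.8 to 41.4 CPM, with 3 of 9 called lower (Pdgfrb -1.01, Col1a1 -0.34, Col1a2 -0.22) and 0 higher. The calls of Col1a1 and Col1a2 were lost under total gene counts (-0.16 and -0.04), and that of Col1a2 also under the replicate block and without any 1 of 5 libraries (all but siControl replicate 1). Of 6 tested 2-cell-like markers, 4 were called higher, among them Zscan4d (2.25), Zscan4f (2.17) and Zscan4c (1.70), at a summed 0.842 to 1.31 and 2.88 to 3.16 CPM. These are near-identical copies with uncertain counts, and the Zscan4c call was lost without any 1 of 5 libraries (all but siControl replicate 3, 1.41 to 1.74) and the Zscan4f call without siControl replicate 1 (1.58) or siNsun2 replicate 2 (2.03). The Zscan4 genes were at 0.0771 to 0.153 CPM in siControl and 0.351 to 0.734 CPM in siNsun2. They may have passed the filter on low counts through siNsun2 alone, so the number of these markers called higher can lean upward. Spermatogonia and Sertoli markers summed to 46.2 to 51.0 and 54.7 to 57.7 CPM, with 4 of 8 called higher (Sox9 1.80, Zbtb16 0.87 and Wt1 0.53 among them) and Gata4 (-0.89) lower, and Insl3 was at 0. The Sox9 call was lost without siControl replicate 1 or 3 or siNsun2 replicate 3 (1.29 to 1.70), and the Wt1 call without siControl replicate 2 (0.37) or siNsun2 replicate 2 (0.43). Sox9, at 0.110 CPM in siControl and 0.388 CPM in siNsun2, may likewise have passed the filter through siNsun2 alone. Whether any of these moved the germline genes was not tested.

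The background was measured first. The mean over 1407 olfactory receptor genes was 0.0177 ± 0.000930 reads per 1e+06 read records per kb of gene span (SD, n = 3) in siControl, with single libraries at 0.0167 to 0.0185. It was 0.0265 ± 0.00176 in siNsun2, at 0.0252 to 0.0285. Every siNsun2 library was above every siControl library, by a ratio of 1.50 or 0.58 on the log2 scale (two-sided exact permutation test, p = 0.1, the smallest that 3 libraries against 3 can give). In the Pspc1 WT library the same mean was 0.00476, but there it rested on few genes. The median receptor gene had 0 counts and 13.8% of receptor genes were detected, against 76.2% to 77.9% in siControl, so a multiple of background in that library orders the genes within it and is not compared with those of the siRNA libraries. Of the receptor genes, 624 passed the filter on low counts, with a median log2 change of 0.67. The siNsun2 libraries alone can meet that filter, so this median can lean upward. Of the 624, 113 were called higher and 3 lower, where 25.8% of all genes tested were called higher and 24.3% lower. A positive point estimate was found in 533 of the 624.

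Against this scale the 33 genes spread widely. In siControl, 20 lay at least 3 times and 10 at least 10 times above the mean receptor gene of the same libraries, per kb of span. In siNsun2 these numbers were 19 and 11. The levels per kb of the mean siControl and of the Pspc1 WT library ordered the genes alike, with a Spearman rho of 0.85 over the 33 genes, given as a description, since the same gene has the same length and sequence in both. Of the 10 genes that were 10 times above background in siControl, Ddx4 and Stra8 ranked 18 and 21 by level per kb in the Pspc1 WT library. The others ranked from 1 to 10 there. At the low end, Rad21l, Syce3, Spo11, Meiob, Tdrd1, Slc25a31 and Tex101 lay below the mean receptor gene in the Pspc1 WT library, where Tex101 had 0 counts. In none of the siRNA group means did a member fall below it.

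**Figure D1:**
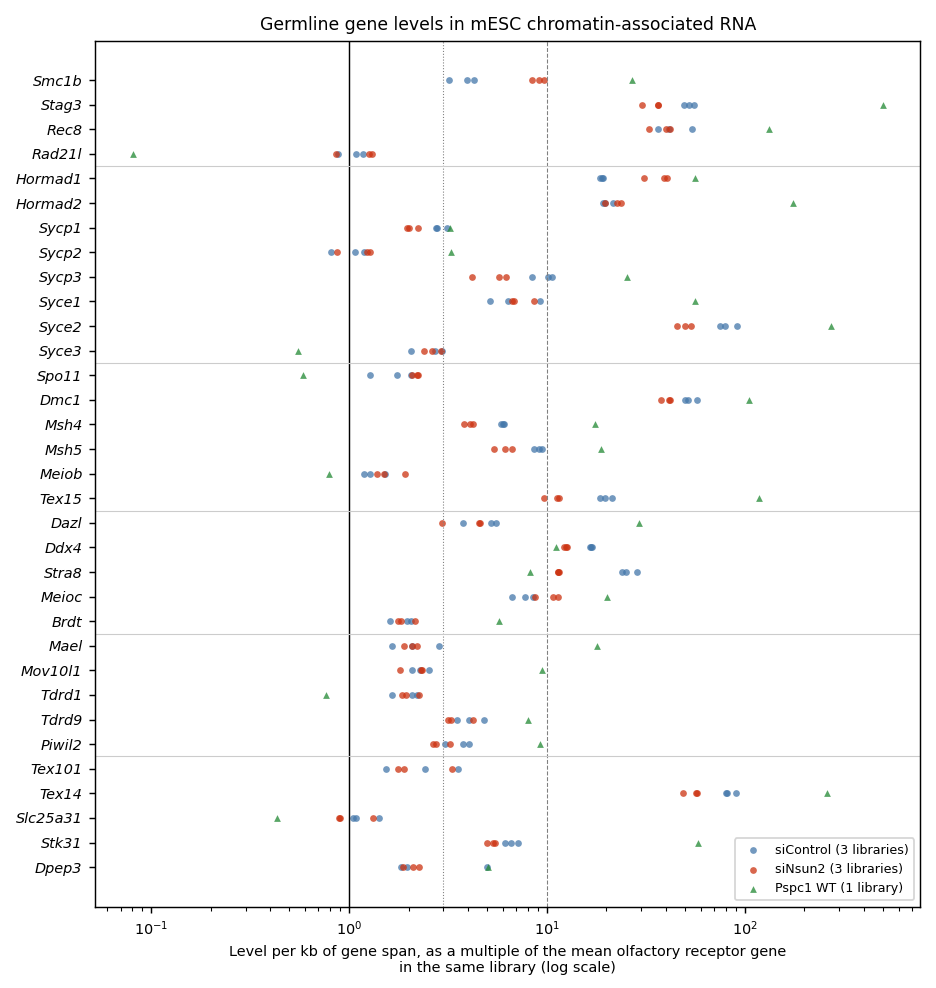
Level of each of the 33 genes per kb of gene span, as a multiple of the mean olfactory receptor gene of the same library (log scale), with 1 point per library and grey lines between roles. The solid line marks 1, the dotted line 3 and the dashed line 10 times the receptor mean. The receptor mean of the Pspc1 WT library was 0.00476, far below the 0.0177 of siControl, which moves all its triangles to the right, and Tex101 had 0 counts there and has no triangle. Tex14, Syce2, Dmc1, Stag3 and Rec8 sit far to the right in all 7 libraries, while Sycp2, Rad21l, Slc25a31 and Meiob sit close to 1 in the siRNA libraries.

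All 33 genes passed the filter on low counts in the siRNA comparison. With siNsun2, 27 had a higher and 6 a lower point estimate. At an adjusted p under 0.05, 18 were called higher and 3 lower, where 25.8% of the 27603 genes tested were called higher and 24.3% lower. Under total gene counts 37.1% and 9.4% of all genes were called higher and lower, and under TMM over genes 10 times above background 38.2% and 8.4%, as these scales moved the median of all genes from 0.14 to 0.32 and 0.33. The library ranges of both groups were apart for 20 of the 33 (18 higher, 2 lower), where 30.3% of all genes were apart and higher and 26.3% apart and lower. The median log2 change was 0.39 over the 33 genes, 0.14 over all genes tested and 0.67 over the receptor genes. Since the list was chosen on this contrast, nothing is read from these counts. The 13 genes under 3 times background had log2 changes of 0.11 to 0.94 and a median of 0.61, beside 0.67 for the receptor genes. The 10 genes between 3 and 10 times background ran from -0.28 to 1.84 with a median of 0.29, and the 10 genes above that from -0.58 to 1.55 with a median of 0.08. The bands were set by the siControl level, which also enters the log2 change, so genes in the lowest band can lean upward. The receptor median of 0.67 can lean upward too, through the filter.

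**Figure D2:**
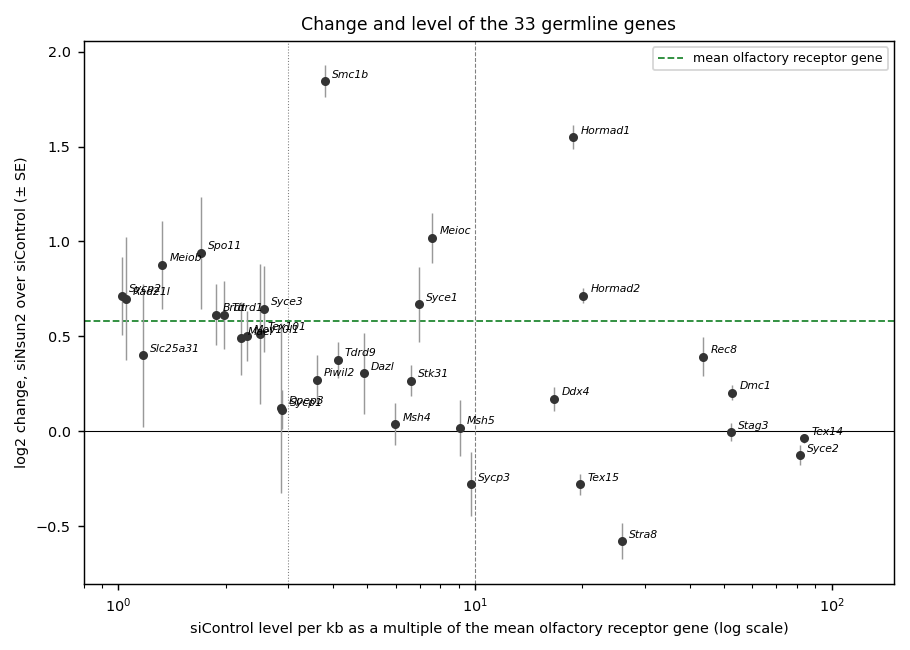
The log2 change of each gene in siNsun2 over siControl (vertical axis, ± SE, n = 3 libraries per group) against its siControl level as a multiple of the mean olfactory receptor gene (log scale). The green dashed line is the change of the mean receptor gene, 0.58. Most genes left of the dotted line (3 times) sit around the green line, Smc1b, Hormad1 and Meioc stand highest, and Stra8, Tex15 and Sycp3 lie lowest, below 0. The siControl level enters both axes.

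The cohesin genes held the largest difference of the list. Smc1b (ENSMUSG00000022432, chromosome 15, 85064689 to 85131964, minus strand, mm10), the meiotic SMC subunit of the cohesin ring, had 440, 335 and 439 reads in the siControl libraries and 1554, 1483 and 1429 in the siNsun2 libraries. As CPM these were 7.02, 5.64 and 7.19 and then 24.8, 23.8 and 22.7. All siNsun2 libraries were far above all siControl libraries. The log2 change was 1.84 (SE 0.08), with the mean going from 6.62 ± 0.849 to 23.8 ± 1.02 CPM. Per kb, Smc1b moved from 3.80 to 9.04 times the mean receptor gene, and once the receptor level per kb was subtracted from both groups the log2 change was 2.10. In the Pspc1 WT library it had 966 reads or 0.127 per 1e+06 read records per kb, between siControl (0.0672) and siNsun2 (0.239). It ranked 12 among the members by level per kb in that library.

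The other cohesin subunits did not share this size of difference. Stag3, the meiotic partner of the ring, stood at 43.4 ± 0.704 CPM in siControl and 43.2 ± 1.96 CPM in siNsun2, with overlapping libraries, and was one of the best expressed members at 52.1 times background. Rec8, the kleisin that is cut to release sister chromatids, stood at 8.33 ± 1.35 and 10.9 ± 0.713 CPM (log2 change 0.39, SE 0.10). Rad21l, the other meiotic kleisin, had only 31, 39 and 45 reads in siControl and 72, 52 and 68 in siNsun2, at 1.05 and 1.13 times the receptor mean. These differences can be set beside the receptor genes' 0.58: Stag3 and Rec8 lay under it and Rad21l, at 0.70 (SE 0.32), within its own SE of it.

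Among the axis genes Hormad1 came next after Smc1b. Hormad1 (ENSMUSG00000028109, chromosome 3, 95559677 to 95587671, plus strand, mm10), a HORMA-domain protein of unsynapsed axes, had 816, 807 and 880 reads in siControl and 2620, 2263 and 2635 in siNsun2, or 13.0, 13.6 and 14.4 CPM and then 41.8, 36.3 and 41.9 CPM. Each knockdown library was over 2 times each control library, and the log2 change was 1.55 (SE 0.06). It went from 18.9 to 36.6 times the receptor mean. Per 1e+06 read records per kb it was at 0.334 in siControl, 0.968 in siNsun2 and 0.266 in the Pspc1 WT library, where it was lowest. Hormad2, its close relative, stood close to it per kb in siControl but differed less, with 49.7, 48.2 and 51.1 CPM in siControl and 81.9, 78.3 and 84.2 CPM in siNsun2. Its groups were also apart, by a log2 change of 0.71 (SE 0.04), which left its multiple of the receptor mean at 20.1 and 21.9.

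These 2 genes mark where the ranking that chose the list ends. Of the 8953 genes that were called and averaged 2 or more on the log2 CPM scale, a floor set after the values were seen, Smc1b ranked 1 and Hormad1 ranked 2, and the next genes were Enox1 (1.50), Itga1 (1.49) and Lef1 (1.47), which are on none of the germline lists and were named after their values were seen. Without any floor Smc1b ranked 314 and Hormad1 650 by log2 change, behind weakly counted genes. Among called genes at least 10 times above background Hormad1 ranked 5, after Gm2607 (2.06, SE 0.71), 1110013H19Rik (1.89, SE 0.70), Gm17952 and Gm29596 (1.58, SE 0.47), and just before Gm37194 (1.50, SE 0.27). Smc1b, at 6.94 times background over the 6 libraries, was not in that set.

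The synaptonemal complex genes differed in both level and change. Syce2, of the central element, was the best expressed at 33.9 ± 2.10 CPM in siControl and 31.1 ± 0.830 CPM in siNsun2, with overlapping libraries and a log2 change of -0.13 (SE 0.05), and it changed sign to 0.06 with total gene counts as the scale. Sycp3, of the lateral element, stood at 3.45 ± 0.471 and 2.84 ± 0.385 CPM, again overlapping (-0.28, SE 0.17). Sycp1, whose product spans the complex as its transverse filament, stood at 8.79 ± 0.815 and 9.50 ± 0.609 CPM but over a gene of 118 kb, which put it at only 2.89 and 2.07 times the receptor mean. The lateral element gene Sycp2 and the central element genes Syce1 and Syce3 had log2 changes of 0.71, 0.67 and 0.64, close to the receptor genes, from 1.66, 1.91 and 1.35 CPM in siControl. Their multiples of background hardly differed between groups, at 1.03 and 1.11 for Sycp2, 6.95 and 7.31 for Syce1, and 2.56 and 2.65 for Syce3. The libraries of both groups did not overlap in any of these 3 genes.

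**Figure D3:**
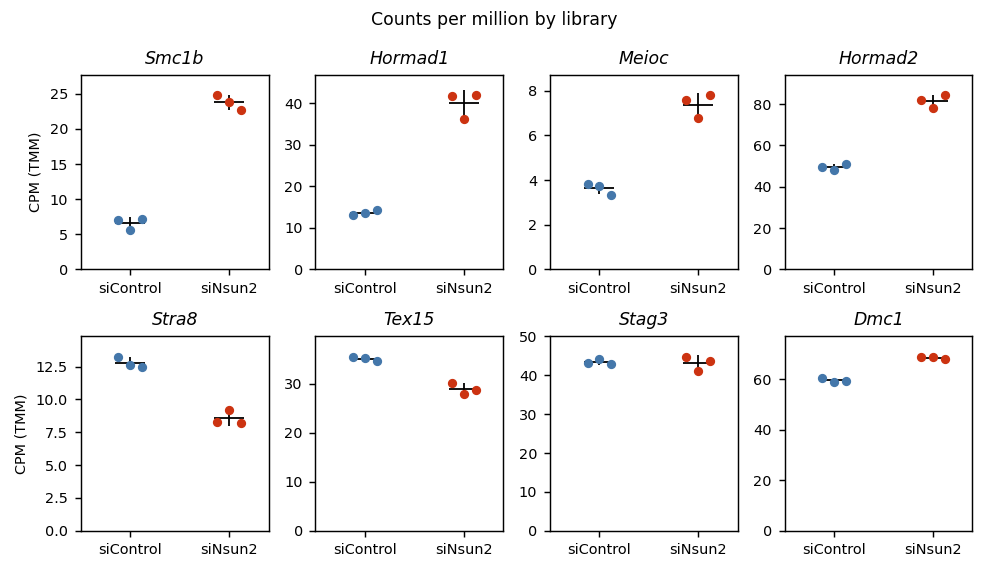
CPM (TMM-scaled) of 8 members in each siControl and siNsun2 library (points), with the group mean (bar) and SD (line), n = 3. Smc1b, Hormad1, Meioc and Hormad2 are higher in all siNsun2 libraries, Stra8 and Tex15 lower in all of them, Stag3 overlaps, and Dmc1 is apart by a small margin.

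Recombination genes held both well-expressed and near-background members. Dmc1, the recombinase that carries out strand exchange between homologues, stood at 59.5 ± 0.876 CPM in siControl and 68.5 ± 0.515 CPM in siNsun2, a log2 change of 0.20 (SE 0.04) at 52.7 and 40.2 times background. Tex15, needed in male germ cells for break repair and transposon silencing, had 35.5, 35.3 and 34.7 CPM in siControl and 30.2, 27.8 and 28.8 CPM in siNsun2. All its knockdown libraries were lower, with a log2 change of -0.28 (SE 0.05) that shrank to -0.09 under TMM over genes 10 times above background. Msh4 and Msh5, which together stabilise crossover intermediates, both overlapped between groups, at 7.59 ± 0.427 and 7.78 ± 0.902 CPM for Msh4 and 4.26 ± 0.384 and 4.31 ± 0.591 CPM for Msh5. The pair also lay close in change, at 0.04 (SE 0.11) and 0.02 (SE 0.15). Their multiples of background were 5.99 and 9.06 in siControl, 4.07 and 6.08 in siNsun2, and 17.6 and 18.8 in the Pspc1 WT library. Spo11, which makes the programmed breaks, had 31, 51 and 46 reads in siControl and 85, 86 and 82 in siNsun2 (0.94, SE 0.29), at 1.71 and 2.17 times background. Meiob, a single-strand DNA binding partner in repair, had 69, 66 and 89 and then 128, 179 and 115 reads (0.88, SE 0.23), at 1.33 and 1.62 times.

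Genes of germ cell identity and meiotic entry went different ways. Meioc, which with the RNA helicase YTHDC2 is needed to sustain meiotic prophase, had 3.83, 3.76 and 3.34 CPM in siControl and 7.57, 6.78 and 7.79 CPM in siNsun2, each knockdown library above each control library (1.02, SE 0.13). Stra8, the retinoic acid-responsive gene of meiotic entry, had 13.3, 12.7 and 12.5 CPM in siControl and 8.30, 9.18 and 8.19 CPM in siNsun2. It was the member with the lowest log2 change, -0.58 (SE 0.09), and its multiple of background went from 25.8 to 11.4. The log2 change was -0.38 under TMM over genes 10 times above background. In the Pspc1 WT library it had 84 reads and ranked 21 among the members by level per kb. Ddx4, the Vasa helicase of germ granules, was at 23.4 ± 1.37 and 26.3 ± 1.86 CPM (0.17, SE 0.06). Its multiples of background were 16.7 and 12.4, and it ranked 18 among the members by level per kb in the Pspc1 WT library. Dazl, an RNA-binding regulator of germ cell translation, overlapped between groups at 1.80 ± 0.433 and 2.22 ± 0.391 CPM. Brdt, a bromodomain protein of spermatocytes and spermatids, was at 2.72 ± 0.379 and 4.16 ± 0.283 CPM, with its multiple of background at 1.88 and 1.91.

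The piRNA pathway genes lay at 1.98 to 4.13 times background in siControl. Mael, Mov10l1 (the helicase that feeds piRNA precursors into processing) and Tdrd1 had log2 changes of 0.49, 0.50 and 0.61 and multiples of background of 1.98 to 2.29 in siControl and 2.01 to 2.15 in siNsun2. Tdrd9, a helicase with a Tudor domain, was at 10.4 ± 1.68 and 13.5 ± 1.79 CPM with overlapping libraries (0.38, SE 0.09). Piwil2, the Piwi protein MILI, overlapped as well, at 5.31 ± 0.672 and 6.41 ± 1.13 CPM (0.27, SE 0.13). None of these 5 genes had a higher multiple of background in siNsun2 than in siControl except Tdrd1, by 1.98 to 2.01. In the Pspc1 WT library Mael stood at 17.9 times background, Mov10l1 at 9.45, Piwil2 at 9.24 and Tdrd9 at 8.05, and Tdrd1 below it at 0.766.

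Of the other germ cell genes, Tex14, which builds the intercellular bridges between germ cells, held 326 ± 5.37 CPM in siControl and 318 ± 7.74 CPM in siNsun2. All the other members together summed to 362 to 369 CPM in siControl and 456 to 467 CPM in siNsun2. Small nuclear and nucleolar RNA genes lie within Tex14 on its strand, so its count is uncertain, as to a lesser degree are those of Mov10l1, Dmc1 and Piwil2, which each hold at least 1 small annotated gene on their strand. Stk31, a kinase-like Tudor protein, was at 12.6 ± 0.684 and 15.2 ± 0.297 CPM (0.27, SE 0.08). Tex101, a surface protein of germ cells, Slc25a31, the germ cell ADP/ATP carrier, and Dpep3, a dipeptidase of the testis, had between 18 and 75 reads in every siRNA library and overlapped between groups, with log2 changes of 0.51 (SE 0.37), 0.40 (SE 0.38) and 0.12 (SE 0.45). A lower level in such bulk RNA may come from fewer cells that make the transcript or from less transcript per cell, which cannot be told apart.

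Other germline genes that were not members gave a comparison outside the list. Of 53 tested, 21 were called higher and 9 lower with siNsun2, 30 in all, where 50.2% of all genes were called in either direction, and their median log2 change was 0.18 (0.14 over all genes). The largest increases were in Tdrd6 (1.57, SE 0.38), a germ granule scaffold, Rnf212 (1.13, SE 0.24), a crossover factor, and Terb2 (1.11, SE 0.13), which ties telomeres to the nuclear envelope. Tdrd6 and Rnf212 were at 0.895 and 0.943 times background in siControl and Terb2 at 7.10. The largest decreases were in Ccdc36 (-0.46, SE 0.15), of the break-forming machinery, Prdm9 (-0.38, SE 0.11), which sets where breaks form, and Mlh3 (-0.33, SE 0.05), of the crossover nuclease. With edgeR's quasi-likelihood test, both Ccdc36 and Prdm9 were called, but both calls were lost under total gene counts, that of Ccdc36 also without siNsun2 replicate 3 (-0.32) and that of Prdm9 without siControl replicate 3 (-0.26). Genes of haploid spermatids, which come after meiosis, were called higher in 11 of 23 tested and lower in 0, where 25.8% of all genes were called higher, with a median of 0.72 beside 0.67 for the receptor genes. Leaving out siControl replicate 3, siNsun2 replicate 1 or siNsun2 replicate 2 brought the 11 to 7, 6 and 5. The largest changes among them were in Odf1 (1.53), Smcp (1.25) and Prm2 (1.08), all at under 3 times background in siControl. The Prm2 call was lost in 8 alternatives, among them the replicate block and DESeq2, and the Smcp call without siControl replicate 3, siNsun2 replicate 1 or siNsun2 replicate 2 (1.04 to 1.23). Primordial germ cell markers were mixed, with Prdm1 (0.85), Dppa3 (0.66) and Tfap2c (0.42) called higher and Kit (-0.29) and Prdm14 (-0.18) lower among 9 tested. The Prdm14 call was lost without siControl replicate 3 (-0.16) or siNsun2 replicate 3 (-0.14). The summed level of these markers was 470.0 to 482 CPM in siControl and 455 to 459 CPM in siNsun2.

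**Figure D4:**
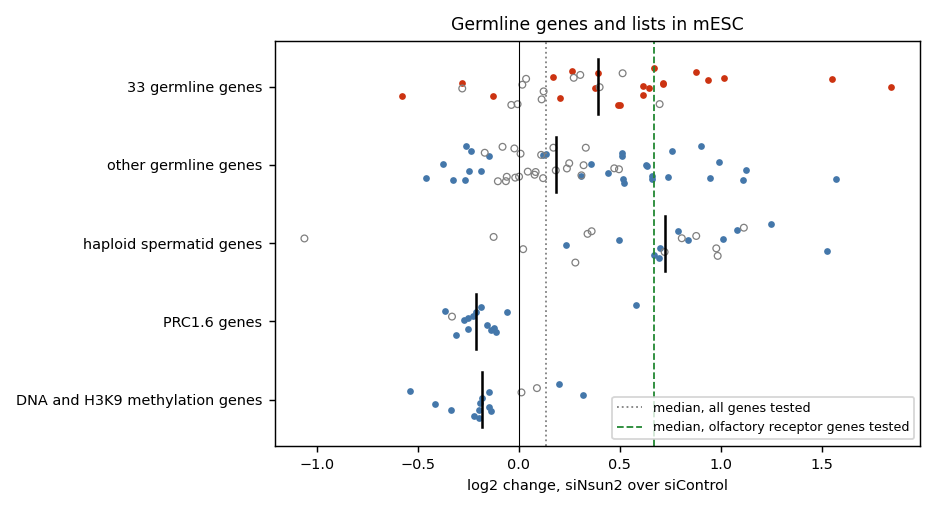
The log2 change in siNsun2 over siControl of the 33 genes and of other lists, with 1 point per gene tested, filled where the gene was called and open where it was not, and a black bar at the list's median. Dotted and dashed lines give the medians of all genes (0.14) and of olfactory receptor genes (0.67). The spermatid genes lie around the receptor median, the 33 genes spread on both sides of it, and both regulator lists lie mostly left of 0.

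Genes of PRC1.6 and of DNA and H3K9 methylation were read next. Of 15 genes of PRC1.6, 13 were called lower and 1 higher, where 24.3% of all genes were called lower and 25.8% higher, with a median of -0.21. The lower genes were led by Mga (-0.36, SE 0.02), the scaffold that binds E-box sequences, Cbx3 (-0.31, SE 0.04) and Wdr5 (-0.27, SE 0.03), and the gene called higher was E2f6 (0.58, SE 0.09). Mga went from 510 ± 8.98 to 397 ± 7.36 CPM, while E2f6 went from 8.72 ± 0.606 to 13.0 ± 1.01 CPM at 11.7 and 11.6 times background. Of 15 genes that add, keep or bind DNA and H3K9 methylation or, as Tet1, Tet2 and Tet3 do, oxidise 5-methylcytosine, 11 were called lower and 2 higher, with a median of -0.18. Uhrf1 (-0.54, SE 0.03), which guides maintenance methylation, Tet2 (-0.42, SE 0.02) and Suv39h1 (-0.34, SE 0.07) had the largest decreases, and the de novo methyltransferase genes Dnmt3a (0.32, SE 0.05) and Dnmt3b (0.20, SE 0.04) were higher. These decreases rested in part on the scale. With total gene counts, where 9.4% of all genes were called lower, 4 PRC1.6 genes were called lower and 2 higher, and 2 and 4 of the methylation genes, and the call of Suv39h1 was lost.

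The orthologues of the 33 genes were read in K562, whose values had no part in choosing the list. All 33 were in the tables and 31 passed the filter, all but MSH5 and DPEP3, which had at most 15 counts in any library. MSH5 overlaps other annotated genes on its strand, so its low count says little of its RNA. Many of the orthologues were barely counted. In K562 the receptor mean rested on few genes, since the median receptor gene had 0 counts in each library, so multiples of it are not given. With shControl the receptor mean per kb was 0.0519 ± 0.00186 in TET2 WT and 0.0652 ± 0.000496 in TET2 KO cells, and with shMBD6 it was 0.0643 ± 0.00111 in TET2 WT cells. Both latter groups were above the first in every library (two-sided exact permutation test, p = 0.1 each, the smallest possible). SMC1B had 26 to 53 reads and HORMAD1 13 to 44 reads per TET2 WT shControl library, and neither was called in either comparison. The log2 change of SMC1B was -1.20 (SE 0.73) in TET2 KO and 0.70 (SE 0.70) with shMBD6, and that of HORMAD1 0.27 (SE 0.80) and 0.22 (SE 0.80). Genes with as few reads were called at larger changes: BRDT (-2.12) and DAZL (-4.78) in TET2 KO, and HORMAD2 (2.29) and TEX101 (1.85) with shMBD6. With SEs of 0.70 to 0.80, the lack of a call does not show that SMC1B and HORMAD1 were unchanged. The SMC1B libraries did not overlap in either comparison, lower in TET2 KO and higher with shMBD6.

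The promoters of the orthologues were searched for a core of the E2F site, GCGGGA or its reverse complement TCCCGC, and for the E-box CACGTG, which reads the same on both strands and can share at most 1 end base with the other motif. RefSeq windows of 300 bases (250 before and 50 after the start, GRCh38.p14) were at hand for 28 of the 33 genes, not for HORMAD1, MEIOB, PIWIL2, TEX14 and TEX15. Of these, 17 (60.7%) held the E2F core in at least 1 window and 9 (32.1%) the E-box. Among 15306 protein-coding genes of the same table the shares were 41.2% and 10.9%, and among all 27305 genes 30.4% and 8.77%. The windows of the members were also richer in G and C (median 65.6%, protein-coding genes 62.7%), and their CpG content was 0.84 of that expected from their base composition (0.75). A match is a description of these letters, not a site in use. The windows of SMC1B, which led the mouse list, and of 3 genes that changed in K562, MAEL, SYCP2 and MSH4, are printed 5′ to 3′ on the strand of the gene, with the motifs in capitals.
SMC1B, chr22:45413550-45413849, minus strand: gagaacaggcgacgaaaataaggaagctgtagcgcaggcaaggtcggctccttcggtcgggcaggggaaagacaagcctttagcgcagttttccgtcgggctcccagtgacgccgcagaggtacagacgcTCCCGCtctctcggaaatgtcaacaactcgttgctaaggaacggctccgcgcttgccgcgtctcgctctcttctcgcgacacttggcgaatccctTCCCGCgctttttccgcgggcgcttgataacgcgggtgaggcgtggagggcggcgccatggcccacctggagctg
MAEL, chr1:166989030-166989329, plus strand: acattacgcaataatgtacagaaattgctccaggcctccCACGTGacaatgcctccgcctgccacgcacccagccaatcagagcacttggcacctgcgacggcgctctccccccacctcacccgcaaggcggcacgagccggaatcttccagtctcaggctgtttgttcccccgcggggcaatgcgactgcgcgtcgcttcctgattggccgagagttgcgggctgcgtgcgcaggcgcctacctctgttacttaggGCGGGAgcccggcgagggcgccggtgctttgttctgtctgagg
SYCP2, chr20:59933588-59933887, minus strand: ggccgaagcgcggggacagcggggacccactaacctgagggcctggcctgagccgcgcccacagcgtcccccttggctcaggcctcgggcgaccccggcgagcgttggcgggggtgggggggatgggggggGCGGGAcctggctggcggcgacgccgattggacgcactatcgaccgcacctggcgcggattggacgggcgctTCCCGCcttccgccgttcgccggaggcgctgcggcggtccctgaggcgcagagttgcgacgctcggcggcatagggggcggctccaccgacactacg
MSH4, chr1:75796632-75796931, plus strand: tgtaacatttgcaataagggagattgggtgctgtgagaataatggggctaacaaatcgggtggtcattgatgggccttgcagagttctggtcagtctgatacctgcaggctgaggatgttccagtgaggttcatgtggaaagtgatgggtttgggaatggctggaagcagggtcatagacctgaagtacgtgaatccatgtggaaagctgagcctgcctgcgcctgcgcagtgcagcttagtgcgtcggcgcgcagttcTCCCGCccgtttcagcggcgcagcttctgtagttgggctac
SMC1B and SYCP2 held 2 E2F cores each, MSH4 1, and this MAEL window 1 of each motif. MAEL has a second window in the table, at chr1:166975332-166975631, which held 1 E2F core and no E-box.

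TET2 KO was compared with TET2 WT between the shControl libraries. TET2 RNA itself was at 121 ± 2.59 CPM in TET2 WT and 129 ± 2.23 CPM in TET2 KO (0.09, SE 0.04, adjusted p = 0.0735 by edgeR), so the RNA level did not mark the knockout, and what part of the gene was altered was not analysed here. Of 31 orthologues tested, 4 were called higher and 7 lower in the knockout. Over all 26023 genes 45.8% were called, 23.5% as higher and 22.3% as lower (17.4% and 31.8% under total gene counts). The median log2 change of the orthologues was -0.26 (-0.05 over all genes). MBD6 itself was lower in these TET2 KO libraries, by -0.46 (edgeR quasi-likelihood test, adjusted p = 6.5e-06), although both groups carried the control shRNA.

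The largest decreases were in MAEL and DAZL. MAEL, of the piRNA pathway, had 480, 704 and 586 reads in the TET2 WT shControl libraries and 22, 1 and 30 in the TET2 KO shControl libraries. The groups were far apart, at 6.41 ± 0.503 and 0.225 ± 0.192 CPM (log2 change -4.74, SE 0.52, adjusted p = 3.27e-06 by edgeR). The TET2 KO libraries labelled shMBD6 had 5, 18 and 47 reads. In these libraries MBD6 was at 34.4 ± 3.86 CPM, not below the 30.3 ± 0.750 CPM of TET2 KO shControl, so they are given by their label alone. DAZL had 26, 57 and 34 reads in TET2 WT shControl and 1, 0 and 2 in TET2 KO shControl (-4.78, SE 0.92, adjusted p = 5.2e-05), and 5, 0 and 3 in the TET2 KO libraries labelled shMBD6. Per gene count, its 3 TET2 KO reads against 117 gave a ratio of 0.0289, with an exact 95% interval for counting error alone of 0.00588 to 0.0866. Both genes overlap another annotated gene on their strand, so their counts are uncertain.

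The other called orthologues changed less. BRDT had a log2 change of -2.12, from 28, 34 and 16 reads to 2, 4 and 8 (adjusted p = 0.0361 by edgeR), a call that was lost without TET2 WT shControl replicate 1 or 2 or TET2 KO shControl replicate 1 or 2, with changes of -2.15 to -1.70. RAD21L1 (-0.91, SE 0.14), which overlaps another gene on its strand, STK31 (-0.88, SE 0.29), DMC1 (-0.46, SE 0.09) and SYCP2 (-0.37, SE 0.09) were also lower, each in all 3 libraries. MSH4 rose from 4.94 ± 0.231 to 14.2 ± 0.664 CPM (1.52, SE 0.13, adjusted p = 7.57e-12 by edgeR). PIWIL2 (1.20, SE 0.25), TEX15 (0.90, SE 0.05) and REC8 (0.88, SE 0.15) rose as well, TEX15 from 55.4 ± 0.906 to 103 ± 6.76 CPM. PIWIL2 and TEX15 both lie on chromosome 8, where the median log2 change of the 977 genes tested was 0.23, whereas it was -0.11 on chromosome 1 (MSH4) and -0.06 on chromosome 14 (REC8). Among the lower genes, RAD21L1 and SYCP2 lie on chromosome 20, with a median of -0.16. DMC1 lies on chromosome 22, with -0.10, and STK31 on chromosome 7, with 0.13. The part of the chromosome in these changes was not tested.

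**Figure D5:**
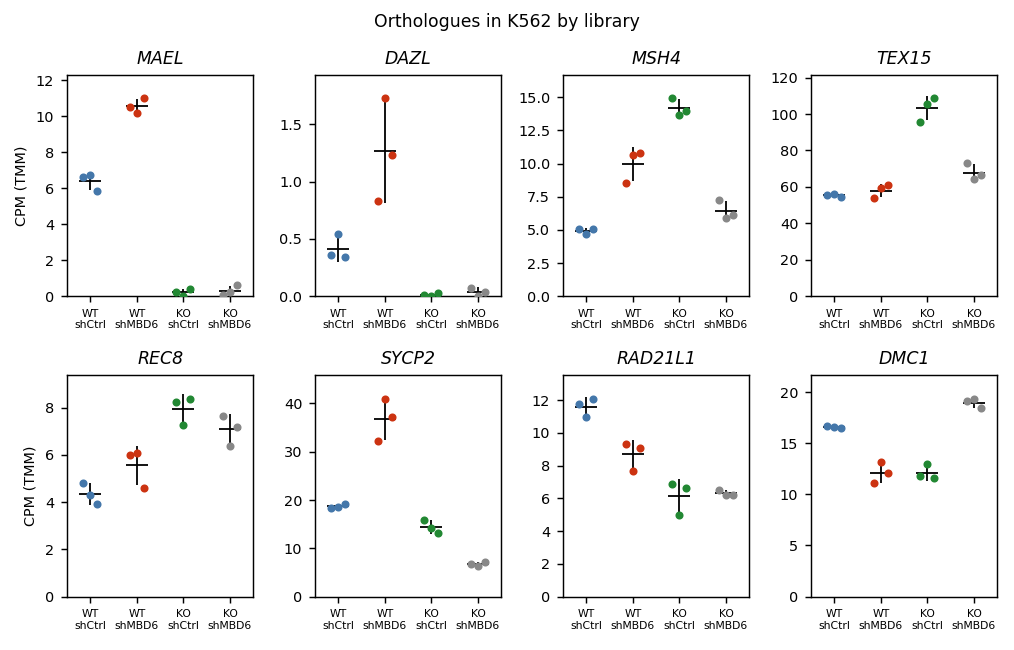
CPM (TMM-scaled) of 8 orthologues in each K562 library (points), with the group mean (bar) and SD (line), n = 3, for TET2 WT and KO labelled shControl (shCtrl) or shMBD6. MAEL and DAZL are near 0 in all TET2 KO libraries, MSH4 and TEX15 are highest in TET2 KO shControl, and SYCP2 is highest in TET2 WT shMBD6.

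MBD6 knockdown was compared with shControl in TET2 WT cells, with the same TET2 WT shControl libraries as above, so the values of both comparisons are tied through them. MBD6 was at 41.5 ± 2.55 CPM in shControl and 28.0 ± 2.71 CPM in shMBD6 (-0.57, SE 0.08, adjusted p = 1.83e-07 by edgeR). Of 31 orthologues tested, 5 were called higher and 3 lower, where 42.5% of all genes were called, 17.7% as higher and 24.7% as lower (22.3% and 18.1% under DESeq2 size factors). The median log2 change was 0.72 over the orthologues and 0.10 over all genes. The TET2 WT shMBD6 libraries alone can meet the filter on low counts, and many orthologues had few reads, so the median of the orthologues can lean upward. SYCP2 rose from 18.2, 18.5 and 19.2 CPM to 32.2, 41.0 and 37.2 CPM, all shMBD6 libraries above all shControl libraries (0.98, SE 0.09, adjusted p = 1.43e-10 by edgeR). MSH4 rose from 4.94 ± 0.231 to 9.97 ± 1.27 CPM (1.01, SE 0.13) and PIWIL2 from 1.28 ± 0.176 to 2.96 ± 0.118 CPM (1.21, SE 0.25). With shMBD6 the median of the genes tested was 0.27 on chromosome 8 (PIWIL2), 0.13 on chromosome 1 (MSH4) and 0.05 on chromosome 20 (SYCP2). The part of the chromosome was not tested here either.

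HORMAD2 (2.29, SE 0.70) and TEX101 (1.85, SE 0.63) were called higher from 10, 27 and 29 and from 8, 32 and 40 reads. The HORMAD2 call was lost without TET2 WT shMBD6 replicate 2 (1.81), and the TEX101 call without TET2 WT shControl replicate 1 (1.49) or TET2 WT shMBD6 replicate 3 (1.73). DMC1 (-0.46, SE 0.09), RAD21L1 (-0.41, SE 0.13) and MEIOB (-0.25, SE 0.04) were lower, and the RAD21L1 call was lost without TET2 WT shMBD6 replicate 2 (-0.34) and also by DESeq2 (-0.30), under DESeq2 size factors (-0.30), with no filter (-0.31) and under total gene counts (-0.32). MEIOB, the orthologue with the most reads, went from 90.8 ± 2.05 to 76.4 ± 2.54 CPM, although it shares its strand with overlapping genes. The number called higher with shMBD6 depended on the method, from 5 here to 12 by DESeq2, and reads outside genes took 13.1% to 13.3% of records in TET2 WT shControl and 15.6% to 16.0% in TET2 WT shMBD6. The part of the background in these increases was not tested.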

How the data were processed

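The 33 members and all lists were chosen with earlier results of these data known. The authors deposited 1 table of raw counts for each library. The authors trimmed reads with Trimmomatic 0.39, aligned them with HISAT2 2.2.1 to mm10 or hg38 and counted them per gene. The methods name HTSeq 0.12.4 for annotated genes and featureCounts for caRNA, and the deposited tables end in HTSeq-type summary lines. Genes inside a gene of the same strand had 0 counts in 99.8% of 6441 mouse cases (6.83% on the opposite strand), so counts were treated as covering whole spans by strand. Spike-in lines numbered 0. Symbols came from GENCODE vM21 and v44 (99.9% and 99.2% of identifiers). Genes were fitted with edgeR 4.0.16 (R 4.3.3, quasi-likelihood, robust, TMM, filterByExpr with 10 counts, Benjamini-Hochberg over all genes, calls at 0.05), on 6 mouse libraries and on all 12 human libraries. In simulated data for siNsun2 over siControl (25852 genes), 53% of 1.5-fold and 73% of 2-fold changes were recovered. Thinly counted genes were left out when the changed genes were drawn, so these rates do not cover them. Replicates differed beyond sampling noise (chi-square per degree of freedom 3.92 to 14.9). CPM used TMM. Receptor genes were those with Olfr or OR symbols. All members are named, with at most 3 called genes per direction of other lists and the orthologues called in K562. Alternatives covered scaling, filters, DESeq2 1.42.0, a replicate block, left-out libraries and background definitions. Precision is limited by counting where reads are few.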

Additional observations from a re-analysis of the deposited data

How the results depend on the processing

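The counts of members called higher (18) ran from 14 to 18 and those called lower (3) from 2 to 3 with 1 library left out. Scaling by total gene counts, or by TMM over genes 10 times above background, gave 23 members called higher and 1 lower under each. Of all genes, 37.1% and 38.2% were called higher under these scales. They turned Syce2 from -0.13 to 0.055 and 0.069. They also turned Prdm14 to 0.0044 and 0.018. Of the other germline genes, 29 were called higher under each, and 3 and 1 lower. They left 4 PRC1.6 genes lower and 2 higher under each, and 2 methylation genes lower and 4 higher under each. A filter of 1 CPM in 3 libraries gave 4 methylation genes higher and 7 spermatid genes higher, DESeq2 size factors 7 and DESeq2 6, and leaving out 1 library 5 to 10. With shMBD6, 9 orthologues were called higher under DESeq2 size factors and under total gene counts, 10 with no filter, 11 when the other K562 groups were left out of the model, and DESeq2 called 12. The causes were not tested. The receptor ratio of 1.50 was 1.71 with gene counts as the total, 1.74 for the median gene and 1.65 without the 5% highest genes. With exon length in place of span, 32 members were at least 3 and 24 at least 10 times above background in siControl, and 33 and 23 in siNsun2.

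The replicate numbers did not pair the libraries (correlations of same-numbered deviations from -0.0035 to 0.025). With the replicate number as a block, 18 members were called higher and 3 lower, 21 and 9 other germline genes, 10 spermatid genes higher, and 4 and 6 orthologues in TET2 KO, where BRDT lost its call. Low read numbers limit Rad21l, Spo11, Tex101, Slc25a31, Dpep3 and most K562 orthologues.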
